A study of Mus musculus with 4 samples.

Results

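Alveolar type II (AT2) cells were taken from the day 0 library as 80 cell barcodes of 7350 that passed a quality filter, which is 1.09% (95% Clopper-Pearson interval 0.864 to 1.35). Kept barcodes had at least 500 detected genes and at most 15% of their UMIs (unique molecular identifiers, each counting 1 captured transcript) from mitochondrial genes. A kept barcode was an AT2 cell when Sftpc made up at least 5% of its UMIs, when Lamp3, Slc34a2 and Abca3 together had at least 1 UMI, and when Tyrobp and Cldn5, genes of myeloid and endothelial cells, had none. The cells were thus selected on measured values, so the levels of these 6 genes, and every comparison with other cells of the same library, are a description and not a test. All 4 libraries of the series together held 33732 kept barcodes of 42105.

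The mice were Gramd2creERT2;mTmG. In this line the inducible Cre recombinase CreERT2 is driven by Gramd2 and changes the mTmG reporter from membrane tdTomato to membrane EGFP in the cell where it acts and in that cell's progeny. Day 0 was freshly isolated lung cells sorted for GFP by flow cytometry, while days 8, 13 and 20 were sorted cells grown on Transwell inserts in Matrigel depleted of growth factors, together with MLg mouse lung fibroblasts and SB 431542, an inhibitor of TGF-beta receptors, and then enriched for EpCAM on magnetic beads. Each day had 1 library, so no difference has a replicate check, and every interval in the text is a 95% interval that covers counting error only. The sources used here do not give the animals' age, sex and tamoxifen treatment, or whether animals were pooled. The labels call the molecule nuclear RNA, whereas the protocol describes single-cell suspensions.

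AT2 cells are the cuboidal secretory cells of the alveolus. They make pulmonary surfactant, a film of phospholipid and surfactant proteins that lowers surface tension, store it in lysosome-related organelles called lamellar bodies, and renew themselves and the flat gas-exchanging type I (AT1) cells after injury. The transcription factor NKX2-1 maintains both alveolar cell types and binds promoters of surfactant genes at a short element with the core CTCAAG.

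The sequences below are promoters of 4 genes that were high in the AT2 cells. Sftpb, Sftpa1 and Sfta2 hold the NKX2-1 core, shown in capitals, and Lyz1, which was detected in only 20 of the 80 cells, does not hold it. Widely detected genes can lack it too, such as Cxcl15, found in 77 cells, and S100g, found in 70. The promoters of the gate genes Lamp3, Slc34a2 and Abca3 also lack it. Each run is the 250 bases before the RefSeq start, written 5′ to 3′ on the gene's strand, from RefSeq in build GRCm38.p6.
Sftpb, chr6:72304360-72304609, plus strand: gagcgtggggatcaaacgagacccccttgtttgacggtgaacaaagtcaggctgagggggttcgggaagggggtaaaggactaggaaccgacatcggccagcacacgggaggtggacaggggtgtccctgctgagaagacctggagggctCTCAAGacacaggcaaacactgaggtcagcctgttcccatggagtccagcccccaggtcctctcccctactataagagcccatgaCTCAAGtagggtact
Sftpa1, chr14:41131538-41131787, plus strand: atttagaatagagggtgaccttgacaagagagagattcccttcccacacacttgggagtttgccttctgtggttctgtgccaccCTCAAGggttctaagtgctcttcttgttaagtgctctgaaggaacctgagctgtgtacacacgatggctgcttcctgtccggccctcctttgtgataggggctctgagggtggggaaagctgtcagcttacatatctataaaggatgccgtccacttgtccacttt
Sfta2, chr17:35649458-35649707, plus strand: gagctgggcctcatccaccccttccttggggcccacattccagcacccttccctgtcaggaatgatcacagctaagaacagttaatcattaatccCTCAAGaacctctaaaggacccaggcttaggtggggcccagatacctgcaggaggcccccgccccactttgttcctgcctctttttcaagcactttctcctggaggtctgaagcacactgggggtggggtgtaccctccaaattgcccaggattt
Lyz1, chr10:117292869-117293118, minus strand: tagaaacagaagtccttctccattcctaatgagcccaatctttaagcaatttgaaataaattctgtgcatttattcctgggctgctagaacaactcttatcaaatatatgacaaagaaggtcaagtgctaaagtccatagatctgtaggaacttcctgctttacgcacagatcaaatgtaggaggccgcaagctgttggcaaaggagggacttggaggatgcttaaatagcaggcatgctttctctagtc

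The letters CTCAAG were searched on both strands. A match to them is a description of the letters and not a binding site. Of the 15 genes named below as highest against AT1 cells, 13 had a promoter in the RefSeq table, and 4 of these (30.8%) held the core: Sftpb with 2 matches, and Sftpa1, Sfta2 and Ppp1r14c with 1 each. Of all 27025 genes with a promoter, 15.2% held it and 1.18% held it at least 2 times. Among the 15 genes lowest against AT1 cells, 2 of 14 (14.3%) held it, Igfbp2 and Spock2.

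The gate on Sftpc fell in a sparsely filled range, as the plot of the gate values shows. Of the kept barcodes, 97 had at least 5% Sftpc, and 17 of them were left out: 13 carried Tyrobp, 5 carried Cldn5 and 2 had no UMI of the other AT2 genes. Another 8 barcodes at 1 to 5% met every other condition. The 5 chosen cells nearest the threshold had 5.32, 5.46, 5.77, 6.12 and 7.20% Sftpc, and the 5 nearest cells outside it had 4.31, 3.92, 3.86, 3.55 and 3.03%. Among the chosen cells 15 lay at 5 to 10%, 61 at 10 to 20% and 4 above 20%, with a lowest value of 5.32%, a median of 13.9% and a highest of 25.3%.

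**Figure D1:**
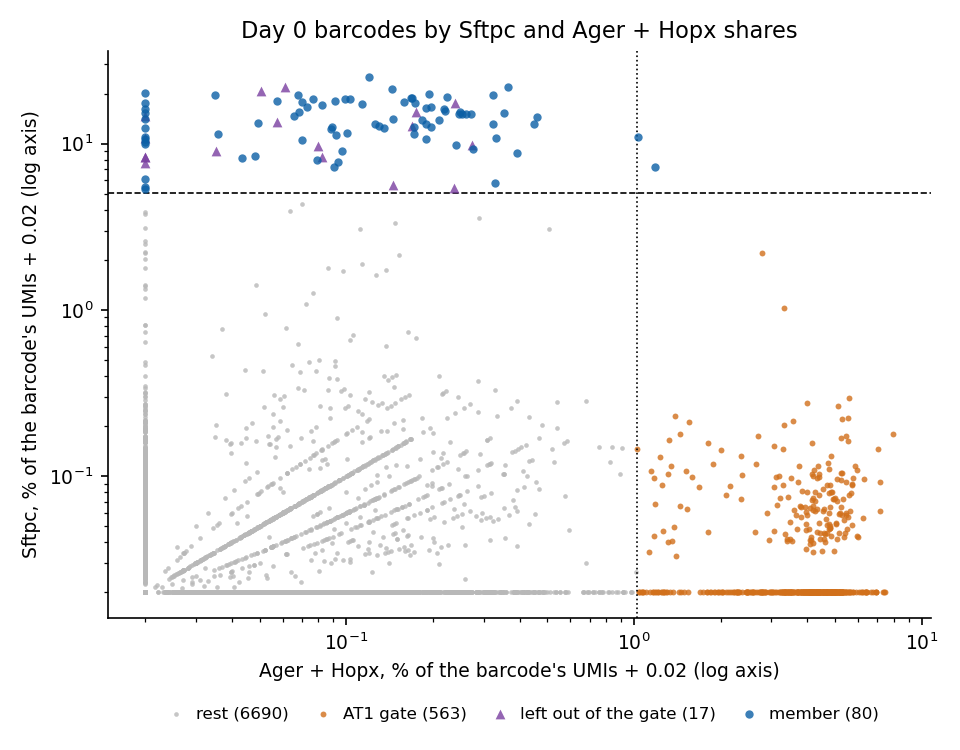
Percent of UMIs from Sftpc (vertical) against percent from Ager and Hopx together (horizontal) for each kept day 0 barcode, both axes logarithmic after adding 0.02, with a dashed line at the 5% Sftpc gate and a dotted line at the 1% AT1 gate. The 80 chosen cells (blue) and the 17 left out for another condition (triangles) lie above the dashed line, the 563 AT1 gate barcodes lie right of the dotted line, and 2 of the chosen cells lie past both lines.

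The comparison sets came from the same library. The AT1 gate took barcodes with Ager and Hopx at 1% or more of UMIs, and gave 563 barcodes after the 2 AT2 cells that also met it (2.5% of the AT2 cells, interval 0.304 to 8.74) were kept with the AT2 cells. The rest comprised 6707 barcodes. A lymphoid reference of 2232 barcodes, with at least 3 UMIs over 8 T and B cell genes, shows how much of each epithelial gene appears in cells that should lack it. Its highest barcode had 12.7% Sftpc, so it is not a clean background. The AT2 cells had 733 to 12841 UMIs with a median of 4030.5, and 505 to 3668 genes with a median of 1546.5. The medians were 2562 UMIs in the AT1 gate and 2541 in the rest, so the AT2 cells were the deeper set. Summed over cells, the UMIs came to 369799 in AT2 cells, 1599025 in the AT1 gate and 28770558 in the rest, and levels are given as counts per 1000000 (CPM) of such sums. The libraries of days 0, 8, 13 and 20 held 31850454, 154258012, 120905926 and 149916314 UMIs.

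In summed levels, AT2 markers that the gate did not use describe the chosen cells. Their list was made with earlier results of these data known. Of 18 tested AT2 markers outside the rule, 17 were higher in the AT2 cells than in the AT1 gate, with a median log2 ratio of 7.60. Higher and lower are used of genes that reached 20 CPM in the larger set and differed 2-fold or more, with an interval of the ratio that left out 1. By this definition 11.3% of the 7153 tested genes were higher in the AT2 cells than in the AT1 gate and 25.1% were lower, with a median log2 ratio of -0.41 over all of them. Ctsh, a lysosomal cathepsin, was the marker that did not differ by this definition, at 917 CPM in AT2 cells and 830 CPM in the AT1 gate. All 19 tested AT1 markers outside the AT1 gate's rule were lower, with a median log2 ratio of -4.62. Because both gates were chosen by expression in these cells, these counts describe the gates and nothing is read from their size. Some single cells of lower Sftpc departed from the sums. A cell at 7.21% Sftpc had Sftpb at 315 CPM, Sftpd and Cxcl15 at 0 and Ager at 9128 CPM. Another at 8.40% had Lyz2 and Cd74 at 0 and Scgb1a1, a club cell gene, at 174514 CPM. Cells at 8.95, 7.98, 5.77 and 5.32% Sftpc had Lyz2 and S100g at 0, with Scgb1a1 at 32283, 22750, 12317 and 36878 CPM. Not every cell of lower Sftpc departed in this way, and 1 at 7.77% had Lyz2 at 25660 and Cxcl15 at 8798 CPM.

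Sftpc made up 146047 CPM, or 14.6%, of the summed UMIs, and its share lowers the CPM of every other gene in the AT2 cells. With Sftpc and Scgb1a1 taken out of the totals, 1036 genes were higher and 1354 lower than in the AT1 gate, against 808 and 1795 with full totals. Scaling by the median ratio, which moved all log2 ratios by 0.29, gave 1048 and 1286. The counts of AT2 marker, AT1 marker and MHC class II genes against the AT1 gate were the same under all 3 scalings.

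The surfactant proteins were detected in nearly every AT2 cell. Sftpb (mm10 chromosome 6, 72304610 to 72314371, plus strand), which organises the surfactant film and is required for lamellar bodies, had UMIs in 80 of 80 cells, from 315 to 25947 CPM per cell with a median of 8942. No cell lacked it, and the summed level was 8399 CPM against 38.8 in the AT1 gate, 84.2 in the rest and 50.6 in the lymphoid reference. Sftpa1 and Sftpd, the collectins that bind microbes in the airspace, lie close together on chromosome 14 (41131782 to 41136452 and 41172214 to 41185149). Sftpa1 was found in 79 cells with a median of 20556 and a highest value of 42175 CPM, and Sftpd in 77 cells with a median of 3616 and a highest value of 12472 CPM. The ratio to the AT1 gate was 217-fold for Sftpb (log2 7.76, interval 7.40 to 8.15), 594-fold for Sftpa1 (9.21, 8.84 to 9.62) and 268-fold for Sftpd (8.06, 7.46 to 8.74). Sfta2, a small secreted surfactant-associated protein, was found in 75 cells at 1590 CPM and was 509-fold higher.

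Secreted defence proteins formed the next group. Cxcl15, the lung chemokine lungkine, was found in 77 cells with a median of 5715 and a highest value of 17961 CPM, and its summed level of 6539 CPM was 615-fold that of the AT1 gate. Hc, which encodes complement C5, had 214 UMIs in 53 AT2 cells and none in 563 AT1 gate barcodes, which makes it at least 308-fold higher. Its highest cell reached 3401 CPM and the median was 363, while 27 cells had none. Hc lies on chromosome 2 (34983331 to 35061438, minus strand). Lcn2, which withholds iron from bacteria, was at 487 CPM against 3.75 in the AT1 gate, and Il33, an alarm cytokine, had 85 UMIs in 36 cells against none. Of 9 tested chemokines and innate secreted proteins 8 were higher than in the AT1 gate and 1 was lower, the neutrophil chemokine Cxcl2, with 0 UMIs in AT2 cells. Without the AT1 gate barcodes that carry Tyrobp or Cldn5 the counts were 8 higher and none lower of 8 tested.

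The 2 lysozyme genes differed in how they were spread over the AT2 cells. Lyz2 was found in 75 of 80 cells, with a median of 18406 and a highest value of 66319 CPM. Lyz1 was found in 20 cells, with a highest value of 26048 CPM and 0 in the other 60. In 16 of the 20 it was at 1047 CPM or more, and in the other 4 it was at 114 to 461 CPM. Against the AT1 gate, where a single UMI was counted, Lyz1 had a log2 ratio of 12.05 with an interval of 9.57 to 17.36. The genes are near-identical neighbours on the minus strand of chromosome 10 (Lyz1 at 117287797 to 117292868, Lyz2 at 117277331 to 117282321), so how reads were divided between them is uncertain. The lymphoid reference, with Lyz2 at 3851 CPM, had Lyz1 at 17.2 CPM.

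A split of the cells at 1000 CPM of Lyz1 was made after its values were seen and is given as levels only. The 16 cells above it had a median of 5894.5 UMIs and the 60 cells without Lyz1 a median of 3466.5. Summed Sftpc was 155191 CPM in the 16 cells and 143085 in the 60, Cxcl15 6998 and 6473, Cd74 4132 and 4758, and Lyz2 17703 and 23461. Sftpb was at 6273 CPM in the cells with Lyz1 and 9124 in those without it. The AT1 genes Ager (817 and 1545) and Aqp5 (380 and 711) were at lower levels in the cells with Lyz1, by 1.89-fold and 1.87-fold. Hopx was at 80.6 and 300 CPM. Pdpn had 2 and 4 UMIs (23.0 and 15.8 CPM) and Gramd2 3 and 11 (34.5 and 43.5 CPM). EGFP was at 2636 CPM in the cells with Lyz1 and 1557 in those without it. Without the 2 AT2 cells inside the AT1 gate, both of which lack Lyz1, the levels were 817 and 1169 for Ager and 380 and 570 for Aqp5. Nupr1, a stress-induced chromatin protein, was at 725 and 308, and at 406 and 308 without 1 cell that held 30 of its 63 UMIs on the Lyz1 side. The part of depth in these differences was not tested.

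**Figure D2:**
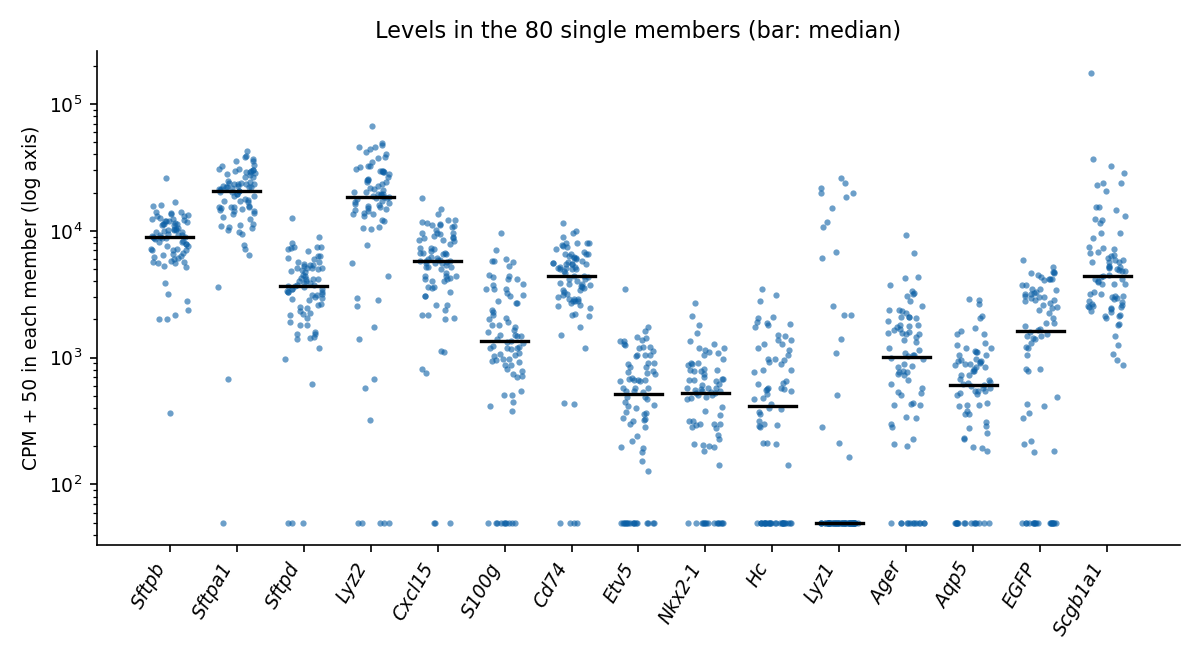
CPM per AT2 cell plus 50, on a log axis, for 15 genes, with 1 point for each of the 80 cells and a bar at the median. Sftpb, Sftpa1, Lyz2 and Cxcl15 fill a band of high values, Lyz1 is at 0 in 60 cells, and Scgb1a1 has 1 cell far above the others.

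Other genes with the largest ratios are known from AT2 cells or from secretory epithelium. S100g, a calcium-binding protein, had 740 UMIs in 70 cells against 3 in the AT1 gate, a log2 ratio of 10.06 (8.51 to 12.34). Etv5, an ETS factor that acts in FGF signalling and AT2 maintenance, had 173 UMIs in 63 cells against 1 (9.55, 7.05 to 14.86), and Egfl6, a secreted matrix protein, 101 against 2 (7.77, 5.88 to 10.84). Mme, the cell-surface peptidase neprilysin, had 162 UMIs against 3, with a log2 ratio of 7.87 (6.29 to 10.16). Muc1, a transmembrane mucin, Ppp1r14c, an inhibitor of protein phosphatase 1, and Pla2g1b, a secreted phospholipase, were 173-fold, 172-fold and 166-fold higher. These genes were found in 49 to 70 of the 80 cells, and the largest part of their UMIs in 1 cell was 8.78%, for S100g.

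The lipid genes of surfactant production were mostly higher. Of 17 tested genes of phospholipid and fatty acid synthesis 9 were higher than in the AT1 gate and 2 were lower, with a median log2 ratio of 1.89. Scd1, which desaturates fatty acids, was found in 77 cells at 3816 CPM against 13.1 in the AT1 gate, a 291-fold ratio. Fasn, the fatty acid synthase, was 39.5-fold higher, and Fabp5, a fatty acid carrier, 45.0-fold. Lpcat1, which makes the dipalmitoyl phosphatidylcholine of surfactant, was found in 74 cells at 1274 CPM against 174, a 7.33-fold ratio. Scd2, a second desaturase, went the other way, at 554 CPM in AT2 cells and 1647 in the AT1 gate. Of 10 tested cholesterol synthesis genes 7 were higher and none lower, at low levels: Idi1, an isoprenoid isomerase, was at 97.4 CPM against 13.1, and Insig1, a sterol-regulated ER protein, at 119 against 30.6.

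The lamellar body and lysosome list was mixed, with 5 of 14 tested genes higher and 2 lower and a median log2 ratio of 0.62. Napsa, the aspartic protease that processes surfactant proteins, was at 1839 CPM against 25.6, a 71.7-fold ratio. Npc2, a sterol carrier, was found in all 80 cells at 4329 CPM, a 15.1-fold ratio, and Ctsc, a dipeptidyl peptidase, was 27.4-fold higher. The lower genes were the lysosomal proteases Ctsd (108 CPM against 358) and Lgmn (83.8 against 290). Abca3, the phospholipid pump of the lamellar body membrane and a gene of the gate, was at 1225 CPM in the AT2 cells and at 182 CPM in the AT1 gate, compared with 73.4 in the rest.

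Lung transcription factors were shared with the AT1 gate in part. Nkx2-1, which both alveolar types use, was at 481 CPM in AT2 cells, where 65 cells had a UMI, and at 513 in the AT1 gate, compared with 28.8 in the rest and 7.93 in the lymphoid reference. The log2 ratio to the AT1 gate was -0.09, and 0.19 with median scaling, so its sign rests on the scaling. Of 13 tested lung factors 6 were higher than in the AT1 gate and 2 were lower. Cebpa, an AT2 differentiation factor, was 73.0-fold higher and Tfcp2l1, an epithelial grainyhead-family factor, 10.2-fold. Tead1, the partner of YAP and TAZ, was at 59.5 CPM against 707, and Gata6 at 51.4 against 166.

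Genes of the AT1 cell were low in the AT2 cells compared with the AT1 gate, and some had few UMIs. Against the rest, which leaves out the AT1 gate, 11 of 16 tested AT1 markers outside that gate's rule were higher and 3 lower. Their median log2 ratio to the rest was 1.55, where 12.9% of all tested genes were higher and 26.6% lower. Igfbp2, an IGF-binding protein of mature AT1 cells, had 6 UMIs in 2 AT2 cells (16.2 CPM) against 2434 CPM in the AT1 gate, a 150-fold lower level. Pdpn, a mucin-type membrane glycoprotein, had 6 UMIs in 3 cells, Spock2, a matrix proteoglycan, 6 UMIs in 1 cell, and Bdnf none, which puts it at least 53.0-fold lower. Pmp22, a membrane protein, Cavin2, a caveola coat protein, Cyp2b10, a cytochrome P450, and Ier3, an immediate early gene, were 104-fold, 53.7-fold, 53.3-fold and 49.9-fold lower. Sema3e had 3 UMIs (log2 -6.90, interval -9.18 to -5.35), and Flrt3, Ptpre, Ccn2, Sema3a and Cped1 also had 1 to 3. Without the 2 cells inside the AT1 gate the log2 ratio of Pdpn was -7.50 instead of -5.98.

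Ager and Aqp5 were present in the AT2 cells at levels above those of the rest and below those of the AT1 gate. Ager, the RAGE receptor of the AT1 basal membrane, was found in 67 of 80 cells with a median of 963 and a highest value of 9128 CPM. Its summed level was 1352 CPM, compared with 22977 in the AT1 gate that was chosen by it, 75.7 in the rest and 92.5 in the lymphoid reference. After each cell was thinned to 1000 UMIs, which left out 3 AT2 cells, 64.9% of AT2 cells and 6.51% of the rest had an Ager UMI, against 83.8% and 14.1% at full depth. The log2 ratio of Ager to the rest was 4.16, and 3.85 without the 2 AT2 cells inside the AT1 gate. Aqp5, a water channel, was found in 65 cells at 654 CPM against 4323 in the AT1 gate and 23.3 in the rest, and 44.2% of thinned AT2 cells had a UMI against 94.6% of the AT1 gate and 1.82% of the lymphoid reference. Hopx, a homeodomain cofactor, did not stand out: 14.3% of thinned AT2 cells had a UMI against 18.2% of the rest, and 52.9% of its 85 UMIs were in 1 cell. Gramd2 (chromosome 9, 59680144 to 59718874, plus strand), whose promoter drives the Cre, had 14 UMIs in 12 AT2 cells, or 37.9 CPM, against 218 CPM in the AT1 gate and 5.14 in the rest.

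**Figure D3:**
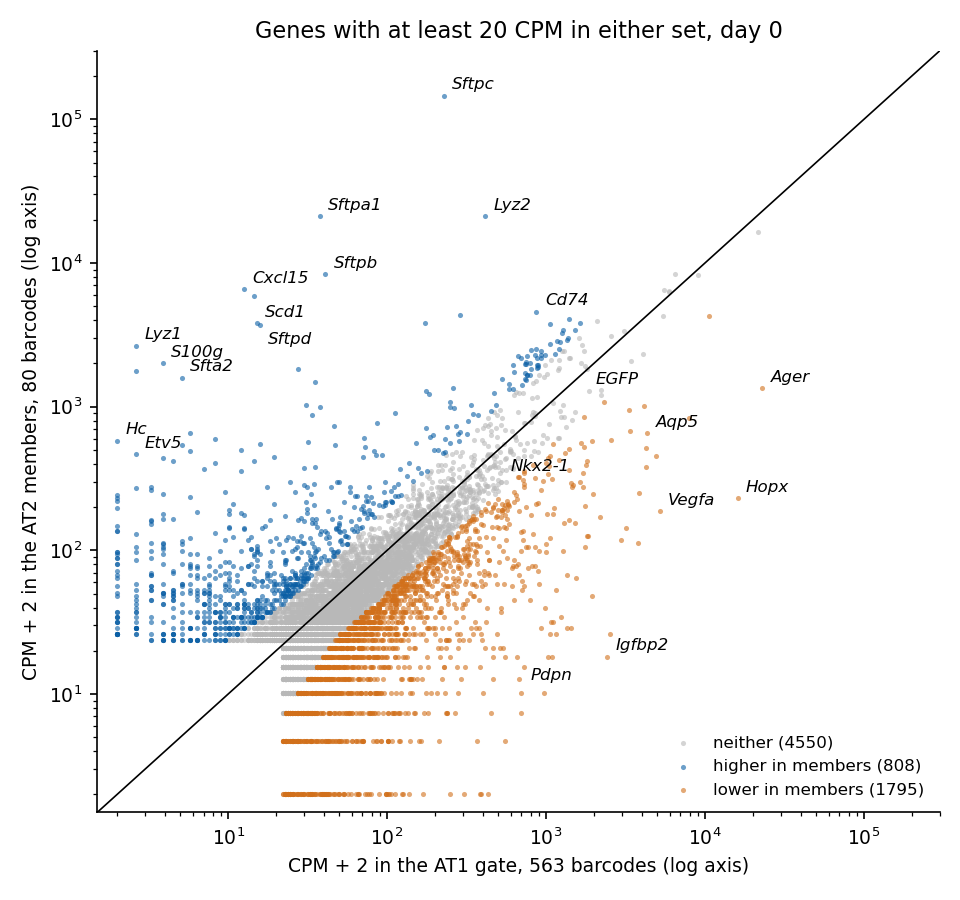
Summed CPM plus 2 in the 80 AT2 cells (vertical) against the 563 AT1 gate barcodes (horizontal), on log axes, with 1 point per tested gene coloured by whether it was higher (808), lower (1795) or neither (4550). Lyz1, S100g, Cxcl15 and Sftpa1 lie far above the diagonal, with log2 ratios of 9.21 to 12.05, and Igfbp2 and Pdpn lie far below it, at -7.23 and -5.98.

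Transport and junction genes differed between AT2 cells and the AT1 gate in both directions. The epithelial sodium channel subunits Scnn1a, Scnn1b and Scnn1g, which clear airspace fluid, were 10.5-fold, 28.5-fold and 62.4-fold lower in AT2 cells than in the AT1 gate, at 94.7, 16.2 and 10.8 CPM. Cftr, the chloride channel, had 23 UMIs in 19 AT2 cells and none in the AT1 gate, at least 33.2-fold higher, and Atp1b1, a sodium pump subunit, was 8.30-fold higher. The tight junction gene Cldn3 was at 563 CPM against 30.0, an 18.7-fold ratio, whereas Cldn18, Ocln, Tjp1, F11r, Cgn, Krt7 and Krt19 were all lower, which leaves 1 of 13 tested junction and keratin genes higher and 7 lower. Cldn18 was found in 72 AT2 cells at 1003 CPM, 4.10-fold below the AT1 gate and 18.2-fold above the rest.

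Growth factor ligands and receptors also differed in both directions. The receptor genes Fgfr2, at 295 CPM in 50 cells, and Met, at 103 CPM in 28 cells, were higher in AT2 cells. The ratio was 3.08-fold for Fgfr2 and, with 3 UMIs in the AT1 gate, 5.78 on the log2 scale (4.12 to 8.12) for Met. Vegfa, the endothelial growth factor, was 27.9-fold lower at 187 CPM, Hbegf, an EGF-family ligand, 20.2-fold lower, and Pdgfa, which acts on fibroblasts, 7.46-fold lower. Wnt3a and Wnt7a had no UMI and were at least 9.25-fold and 7.55-fold lower. Of 13 tested ligands and receptors 3 were higher and 7 lower. Areg, an EGF-family ligand and the remaining higher gene, had 61.1% of its 36 UMIs in 1 cell.

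Genes of MHC class II, which present peptides to helper T cells and are expressed by mouse AT2 cells, were high. Cd74, the invariant chain, was found in 76 cells with a median of 4347 and a highest value of 11547 CPM, and H2-Aa in 71 cells with a median of 1325 and a highest value of 4670. All 7 tested genes of the group were higher than in the AT1 gate, with Cd74 and H2-Aa each 5.27-fold higher and the transactivator Ciita 8.17-fold. The AT1 gate has no condition on Tyrobp and Cldn5, and its 73 barcodes with a UMI of either held 2295 of its 2714 MHC class II UMIs. Without those barcodes the log2 ratios were 4.64 for Cd74 and 5.35 for H2-Aa, against 2.40 for both with them, and those of Lyz2 and Napsa were 7.86 and 7.31 against 5.69 and 6.16. Against the rest of the library, which includes lymphoid and myeloid cells, the summed levels were close: Cd74 was at 4578 CPM in AT2 cells and 3996 in the rest, and H2-Aa at 1357 and 1486. H2-Eb1 and H2-DMa, a class II chain and a peptide-loading chain, were lower than in the rest, 2.51-fold and 2.27-fold, and none of the 7 genes was higher.

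Against the rest of the library 12.9% of 7734 tested genes were higher in the AT2 cells and 26.6% were lower, with a median log2 ratio of -0.34. All 18 AT2 markers outside the rule were higher, with a median of 5.93. S100g was 371-fold higher, Egfl6 218-fold and Hc 187-fold. Mlc1, a membrane protein, was 259-fold higher, Rbpjl, a relative of the Notch effector RBPJ, 189-fold, Acoxl, an acyl-CoA oxidase-like gene, 177-fold, Lgi3, a secreted leucine-rich protein, 168-fold, and Slc26a9, a chloride transporter, 146-fold. Cxcl15 and Pla2g1b, at 158-fold and 152-fold, complete the 10 largest ratios. Lipid synthesis genes were higher in 14 of 17 cases with Plin2, a lipid droplet coat protein, 3.13-fold lower, lung transcription factors in 9 of 13, and junction genes in 9 of 13.

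The genes lowest against the rest belong to blood, vessel and stromal cells. The AT2 rule leaves out barcodes with Tyrobp or Cldn5, whereas the rest keeps them. Low myeloid and endothelial levels are thus partly set by the rule and are not a measure of purity. S100a9, a neutrophil protein, was 282-fold lower at 4 UMIs, Fcer1g, an immune receptor chain, 101-fold, Ccl6, a myeloid chemokine, 74.1-fold, and Igfbp5, an IGF-binding protein of stroma, 57.6-fold. Cybb, a subunit of the phagocyte oxidase, had no UMI and was at least 57.0-fold lower. S100a8, Chil3, Ctss, Ptprc and Ramp2 had 1 to 3 UMIs in all AT2 cells. The 12 myeloid markers summed to 86.5 CPM in AT2 cells against 8953 in the rest, with Aif1, Mrc1 and Ear2 at 0. The lymphoid list summed to 130 CPM against 2179, with Cd79a and Ms4a1 at 0, and the endothelial list to 54.1 CPM against 2156, with Tie1 and Emcn at 0. Mesothelial, neuroendocrine and erythroid markers had no UMI. Smooth muscle and pericyte markers had 72 UMIs in 4 cells, 68 of them in 1 cell.

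Transcripts of airway secretory cells were present in the AT2 cells and in every other set. Scgb1a1, the club cell secretoglobin, was found in all 80 AT2 cells, at 821 to 174514 CPM with a median of 4376, and 1 cell held 1238 of the 3085 UMIs (40.1%). The summed level was 8342 CPM, and 5092 without that cell, against 6490 in the AT1 gate, 34900 in the rest and 17520 in the lymphoid reference. After thinning, 100% of AT2 cells, 98.8% of the AT1 gate and 90.7% of the lymphoid reference had a Scgb1a1 UMI, and for Scgb3a2 the shares were 11.7%, 14.4% and 13.9%. The Scgb3a2 share of the AT2 cells was thus no higher than that of the lymphoid reference. Their summed Scgb1a1 level was below that of the lymphoid reference. Bpifa1, Muc5b, Reg3g and Agr2 were at 0. Cbr2, a carbonyl reductase of club cells, was different, at 3826 CPM in 78 AT2 cells against 170 in the AT1 gate, 919 in the rest and 299 in the lymphoid reference.

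Sftpc RNA in cells outside the gate was low but widespread. In thinned cells 16.4% of the AT1 gate, 14.1% of the rest and 15.2% of the lymphoid reference had an Sftpc UMI, compared with 32.3%, 30.4% and 31.2% at full depth. For Sftpb the thinned shares were 3.99%, 3.76% and 4.27%, against 98.7% of AT2 cells. Lyz1 was in 19.5% of thinned AT2 cells and 0.576% of the lymphoid reference. Hc was in 36.4% of thinned AT2 cells, in none of 501 AT1 gate cells (upper limit 0.734%) and in 0.144% of the lymphoid reference, and Etv5 was in 33.8% of AT2 cells and 0.768% of the lymphoid reference.

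The AT2 cells carried the sorted reporter. EGFP was found in 62 of 80 cells with a median of 1582 and a highest value of 5839 CPM, and summed to 1925 CPM against 1769 in the AT1 gate, 106 in the rest and 58.0 in the lymphoid reference. Of the 62 AT2 cells with at least 2 reporter UMIs, 51 had at least 80% of them from EGFP, which is 82.3% (70.5 to 90.8), while 7 (11.3%, 4.66 to 21.9) had at most 20% and 4 lay between. The EGFP-dominant share of the AT1 gate was also 82.3% (353 of 429, interval 78.3 to 85.8), and its tdTomato-dominant share was 3.26% (1.80 to 5.41). The rest had 10.0% EGFP-dominant and 59.9% tdTomato-dominant barcodes, and the lymphoid reference 2.44% and 65.9%. The AT2 and AT1 shares differed by less than counting error, and both intervals lay above that of the rest of this sorted library (8.79 to 11.4). Since only 7 AT2 cells were tdTomato-dominant, fewer than the 20 set as a minimum, EGFP and tdTomato cells were not compared gene by gene.

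**Figure D4:**
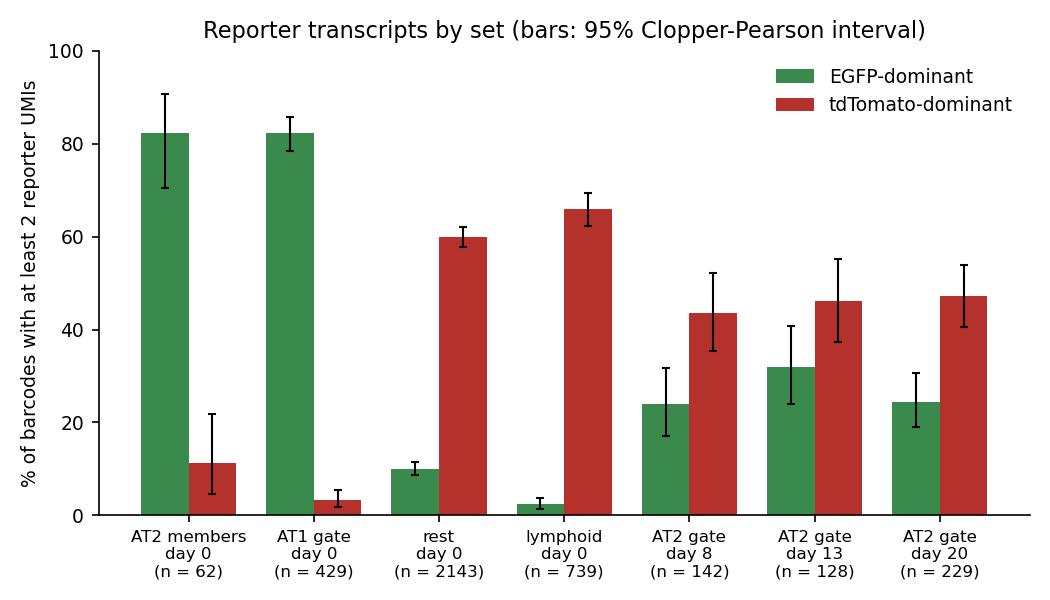
Percent of barcodes with at least 2 reporter UMIs that were EGFP-dominant or tdTomato-dominant, with 95% Clopper-Pearson intervals, by set. The AT2 cells and the AT1 gate of day 0 are both at 82.3% EGFP-dominant, while cells of the same AT2 gate in culture are at 23.9% to 32.0%.

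The same gate found 203 of 7893 kept barcodes at day 8 (2.57%), 179 of 9311 at day 13 (1.92%) and 382 of 9178 at day 20 (4.16%). Without the condition on Tyrobp and Cldn5 the numbers were 333, 480 and 571. The gated culture cells had medians of 11631, 12653 and 14555 UMIs. Their EGFP-dominant share was 23.9% (17.2 to 31.8) at day 8, 32.0% (24.1 to 40.9) at day 13 and 24.5% (19.0 to 30.5) at day 20, and their tdTomato-dominant share was 43.7, 46.1 and 47.2%. No interval of a culture day overlapped that of day 0. Mixed barcodes made up 46 of 142, 28 of 128 and 65 of 229 on these days.

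Compared with the same gate at day 8, 20.8% of 6258 tested genes were higher in the day 0 AT2 cells and 10.4% were lower, with a median log2 ratio of 0.25. Scaling by the median ratio turned the counts of 1299 and 650 into 1029 and 807. Thinning the day 8 cells to 4030 UMIs before the gate, which then took 252 cells, gave 989 and 640. Sftpc, on which both sets were selected, was at 146047 and 146354 CPM, and Sftpb at 8399 and 8568. Sftpa1 was at 21157 CPM at day 0 and 11942, 14345 and 6007 at days 8, 13 and 20, and Lyz1 at 2658, 4252, 5537 and 2035.

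MHC class II genes were higher at day 0 than at day 8 in 7 of 7 cases, with a median log2 ratio of 3.85. H2-Aa was at 1357 CPM at day 0 and 49.0, 126 and 386 at days 8, 13 and 20. Cd74 was at 4578 CPM and then 477, 1023 and 1942, and Ciita at 46.0 and then 3.18, 3.67 and 13.0. The ratios to day 8 were 27.7-fold for H2-Aa, 21.4-fold for H2-Ab1, 19.8-fold for H2-Eb1, 14.4-fold for Ciita and 9.59-fold for Cd74. For each of these the day 20 level was above that of day 8 and below that of day 0.

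The AT2 markers outside the rule were split at day 8, with 8 of 18 higher at day 0, 2 lower and a median log2 ratio of 0.81. Hc was at 579 CPM at day 0 and 18.5, 47.7 and 111 in culture, 31.3-fold above day 8. Egfl6 was 16.5-fold, S100g 5.49-fold, Etv5 4.17-fold and Muc1 3.00-fold higher at day 0. The lower ones were Ctsh, at 917 CPM against 2095, and Fabp5, at 1493 against 4143. With median scaling the counts were 7 and 3.

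Cholesterol synthesis genes were lower at day 0 than at day 8. Of 12 tested cholesterol synthesis genes 7 were lower and none higher, with a median log2 ratio of -1.03. Sqle and Cyp51, enzymes of the later steps, were 6.61-fold and 6.34-fold lower at 16.2 and 24.3 CPM, and Fdps, which makes farnesyl diphosphate, was at 135 CPM against 556. Sqle and Cyp51 rest on 6 and 9 UMIs in the day 0 cells. Of 16 tested genes of phospholipid and fatty acid synthesis 2 were higher at day 0 than at day 8 and 4 lower. With median scaling the counts were 1 and 4. Scd1 was at 3816 CPM at day 0 and 9138, 6635 and 9309 in culture, while Lpcat1 and Chka, genes of phosphatidylcholine synthesis, were 2.08-fold and 3.52-fold higher at day 0.

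**Figure D5:**
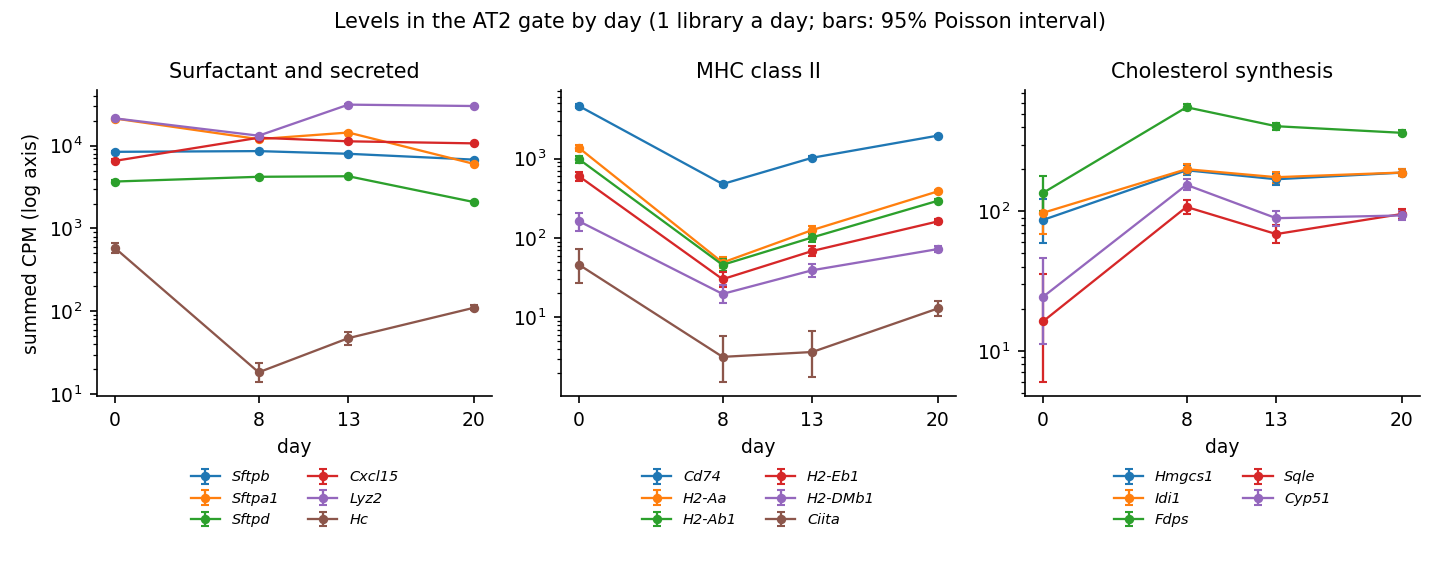
Summed CPM on a log axis in cells of the AT2 gate at days 0, 8, 13 and 20, in 3 panels for surfactant and secreted genes, MHC class II genes and cholesterol synthesis genes, with 1 library per day. H2-Aa is at 1357 CPM at day 0 and 49.0 at day 8, and Fdps at 135 and 556.

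Among genes with at least 100 CPM in the larger set, the 10 largest ratios of day 0 to day 8 included Tppp3, a tubulin-binding protein (73.1-fold), and Apoe, a lipid carrier (36.2-fold). Besides Hc and 3 MHC class II genes, the others were Cox6a2, a subunit of cytochrome c oxidase (29.0-fold), Adam19, a metalloprotease (23.2-fold), Mme (19.7-fold) and Irx1, a homeobox factor (18.2-fold). In Tppp3, a marker on the ciliated list, 30.2% of the 43 UMIs were in 1 cell. Tppp3 was at 116 CPM in AT2 cells, 337 in the rest and 96.1 in the lymphoid reference, and Apoe at 392, 839 and 1221. Neither stood clear of the lymphoid reference. The rest mixes cell types, and myeloid markers summed to 11328 CPM in the lymphoid reference, so neither set is a clean background. The part of RNA from other cells in these levels was not tested. The ciliated list summed to 292 CPM in AT2 cells and 226 in the lymphoid reference. Cox6a2 was at 287 CPM at day 0, against 32.5 in the AT1 gate, 6.67 in the rest and 9.87, 1.47 and 8.32 in culture. Irx1, at 462 CPM, was at 352 in the AT1 gate and 25.5, 45.8 and 73.3 in culture.

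The genes lower at day 0 than at day 8 included secreted and stress-related genes. Bpifa1, an airway antimicrobial protein, A2ml1, a protease inhibitor, and Cp, a copper-carrying oxidase, had no UMI at day 0 and were at least 181-fold, 43.9-fold and 41.0-fold lower. Retnla, a resistin-like secreted protein, was at 29.7 CPM against 2692, and Pglyrp1, which binds bacterial peptidoglycan, at 75.7 against 2732. Mt1 and Mt2, the metallothioneins, were 27.4-fold and 25.9-fold lower. Phgr1 was 42.8-fold lower, Klk13 had 1 UMI at day 0, and Eno1, which has a near-identical copy that may share its reads, was 25.4-fold lower.

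Markers of the transitional state between AT2 and AT1 cells were lower at day 0 in 7 of 13 tested cases and higher in none, with Krt19 at 97.4 CPM against 799, Cdkn1a at 21.6 against 88.5 and Clu at 94.7 against 282. Krt8, a keratin used as a marker of that state, was at 454 CPM at day 0 and 610 at day 8. Proliferation genes were lower in 7 of 8 cases, and Mki67, Top2a, Birc5, Cdk1, Ube2c and Ccnb1 had no UMI in the 80 AT2 cells, where 3 UMIs would be 8.11 CPM. Lung transcription factors were higher at day 0 in 7 of 13 tested cases and lower in none, with Cebpd 4.94-fold, Etv5 4.17-fold and Nkx2-1 2.63-fold higher. With median scaling 5 of these factors were higher and none lower. Of 15 tested AT1 markers outside the AT1 gate's rule 6 were higher at day 0 and 3 lower, against 20.8% and 10.4% of all tested genes. Their median log2 ratio was 0.37, and that of all tested genes 0.25. The AT1 gene Aqp5 was at 654 CPM at day 0 and 1785 at day 8, and Ager at 1352 and 1304.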

How the data were processed

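The deposited files hold raw UMI counts per gene and barcode for 22547 features in each of 4 libraries, including EGFP and tdTomato. Per the submitters' processing notes they name Cell Ranger 7.0.1 and mm10. The sources used here do not give the annotation, or any removal of free RNA or doublets by the authors. Library preparation used 10x Genomics 3' chemistry, version 3.1, per the labels' protocols. UMIs at the 3' end are not scaled by gene length, so levels are compared between sets of cells for a gene and not between genes.

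Since each day has 1 library, there was no test between days or sets. UMIs were summed over the cells of a set and scaled to CPM, with exact Poisson intervals for levels, exact conditional Poisson intervals for ratios and Clopper-Pearson intervals for shares, all at 95%. A side with 0 UMIs was set to 3 for a lower bound. Named genes are the 15 largest ratios against the AT1 gate and the 10 largest against the rest and day 8 in each direction, with at least 100 CPM in the larger set, plus up to 6 members of each of 28 lists (292 genes), a set of key genes, and further list members where a count needed them. Mitochondrial, ribosomal, haemoglobin, immunoglobulin, Xist, Y-linked, predicted and gate genes were left out of the ranking. Some list members are not reported here and stay in the counts and medians. The members and lists were chosen with earlier results of these data known. Scrublet in Scanpy 1.11.5 called 0 doublets at day 0 by its automatic threshold, which therefore did not work, so doublets were kept. Leaving out the 523 barcodes of highest score, 3 of them AT2 cells, was an alternative. Day 0 shared 41, 37 and 25 barcodes with days 8, 13 and 20, 1 of them an AT2 cell. Gene positions are from GENCODE for mm10 and promoters from RefSeq for GRCm38.p6. The ratio calculation was tested on simulated data that had counting error only. The spread between cells was left out, so the simulation cannot show how the intervals hold on these data. Python 3.11.15, NumPy 2.4.6, SciPy 1.17.1 and pandas 2.3.3 were used.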

Additional observations from a re-analysis of the deposited data

How the results depend on the processing

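Across the alternatives none of the key genes that counted as higher or lower changed direction. Of 140 values that answer a comparison, 127 moved by less than their counting interval or by less than 1.5 times, and 13 moved more. Among the other values 102 moved more and 1331 did not. For key genes, a gate with 7 further genes at 0 UMIs moved the most values, 18, and left 66 the same. Median scaling moved 15 and a gate of at least 10% Sftpc moved 10. A minimum of 50 CPM gave 513 genes higher than in the AT1 gate, 604 higher and 1087 lower than in the rest, and 674 higher and 378 lower than at day 8. A minimum ratio of 4-fold gave 412 and 792, 445 and 1151, and 310 and 244. These follow from fewer genes being able to count. The share of AT2 cells inside the AT1 gate was 0 by construction when those cells were left out. The EGFP-dominant share of AT2 cells was 80.4% to 84.9% over the gate alternatives, which took 65 to 95 cells, and 90.4% with at least 4 reporter UMIs. That minimum, chosen after seeing the data, gave 34.6% at day 20, and the cause was not tested. Other alternatives chosen after seeing the data were the AT1 gate without Tyrobp and Cldn5, the thinned day 8 cells, the culture gate without the Tyrobp and Cldn5 condition, the Lyz1 split without single cells, and leaving out the AT2 cell with most Scgb1a1, which turned the log2 ratio of Scgb1a1 to the AT1 gate from 0.36 to -0.35. Without the barcodes of highest doublet score the log2 ratios to the AT1 gate were 3.79 for Cd74, 3.25 for H2-Aa, 6.78 for Lyz2 and 7.54 for Napsa. The depth of 369799 summed UMIs puts 3 UMIs, the limit that a count of 0 allows, at 8.11 CPM, and levels from 1 to 3 UMIs in AT2 cells have wide intervals. No paired analysis was possible because each day has 1 library, and for the same reason no replicate could be left out.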

Other observations

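Further groups of genes were compared between the AT2 cells and the AT1 gate, against which 11.3% of all tested genes were higher and 25.1% lower. Interferon response genes were lower than in the AT1 gate in 6 of 7 tested cases and higher in none, with a median log2 ratio of -2.22; Bst2, a membrane tether of viruses, was 4.67-fold lower and Ifit3, an antiviral RNA-binding protein, had no UMI. Myeloid markers were lower in 8 of 8 tested cases and endothelial markers in 5 of 5, with the myeloid list at 1039 CPM in the AT1 gate and 86.5 in AT2 cells. The AT2 rule requires Tyrobp and Cldn5 at 0 and the AT1 gate does not, so nothing is read from these 2 counts. With median scaling 2 of 5 endothelial markers were lower. Without the AT1 gate barcodes that carry Tyrobp or Cldn5, 3 of 4 tested myeloid markers were lower. The same change left 5 of 7 interferon genes lower, with a median of -2.19. Among 9 tested genes of oxidative stress defence 4 were higher and 2 lower than in the AT1 gate. Cat, the catalase gene, was 6.02-fold higher and Gsta4, a glutathione transferase for lipid peroxides, 31.7-fold, while Prdx6, a peroxiredoxin with phospholipase activity, was 8.33-fold lower. Cat was also 4.98-fold higher at day 0 than in the same gate at day 8, where Gsta4 was 3.78-fold lower at day 0. Of 15 immediate early and heat shock genes 3 were higher and 3 lower than in the AT1 gate, and these counts were 7 and 2 with median scaling and 7 and 3 without the barcodes that carry Tyrobp or Cldn5. Hspa1a, an inducible chaperone, was 7.62-fold higher than in the AT1 gate and 5.71-fold higher at day 0 than at day 8.

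The variation among the 80 AT2 cells was described gene by gene. Over 1076 genes with at least 40 UMIs, the variance between cells relative to that expected from depth alone had a median of 1.19. This ratio grows with a gene's UMI count for the same relative spread, so its size does not rank genes by spread. It was 320 for Scgb1a1, 69.5 for Lyz1, 50.3 for Sftpc, 45.9 for Lyz2 and 17.4 for S100a6, a calcium-binding protein. Sftpc, the gate gene, had quartiles of 10.9 and 17.3% of a cell's UMIs. For Scgb1a1 the ratio comes with the cell that holds 40.1% of the UMIs, whereas in Lyz1 the cell with most UMIs holds 16.4%. For Cyp2f2, a cytochrome P450 of club cells, the ratio was 12.7 with 20 cells detected.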
